A study of Mus musculus with 8 samples.

Results

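DNA replication and S phase genes encode the proteins that license origins, unwind and copy DNA and supply its building blocks. Their transcripts were counted by poly(A) RNA sequencing of sorted brain endothelial cells from mouse embryos at E14.5 (embryonic day). A list of 33 such genes was taken by name, and all 33 are among the 24421 rows of the count table and among the 13540 genes tested. The knockout group holds 4 libraries from Flvcr2 knockout embryos, and the heterozygous group holds 4 libraries from Flvcr2 heterozygous embryos, which carry the mutation on 1 allele. Both groups are of the C57Bl6 strain. Mutant alleles drive GFP, and the sort in both genotypes took GFP+ CD31+ cells, CD31 being a surface protein of endothelium, so heterozygous cells carry the mutation too. Each library came from 2000 to 5000 cells, and whether it came from 1 embryo or a pool is not stated in the labels. Flvcr2 encodes a membrane transporter, and the comparison asks how brain endothelial cells differ when it is lost.

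In G1, the origin recognition complex, Cdc6 and Cdt1 load the ring-shaped helicase of Mcm2 to Mcm7 onto DNA. At the start of S phase, cyclin E with its kinase, Cdc45, the GINS complex and Mcm10 turn the loaded ring into an active helicase, and the polymerases follow. Most of these genes are transcribed under E2F factors in late G1, so their transcripts rise in cycling cells. In the embryonic brain, vessels grow by division and migration of endothelial cells.

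Total counts ran from 12.1 to 35.9 M in knockout and from 9.11 to 22.6 M in heterozygous libraries. Flvcr2 was at 301 ± 73.6 CPM (counts per 1 M counts, with TMM-scaled library sizes) in knockout and 427 ± 124 CPM in heterozygous libraries (SD, n = 4 each) (listed under its older symbol Mfsd7c) and was not called; the deleted part of the gene is a detail not given in the sources used here, so this level does not check the genotypes. Summed over 12 endothelial markers, the level was 9098 to 12426 CPM in knockout and 6710 to 11626 CPM in heterozygous libraries, and none of the 12 was at 0. Of these 12, edgeR called Emcn higher in knockout and 0 lower, and DESeq2 called 5 higher and 1 lower. Markers of other cells were counted too: 13 radial glia genes summed to 125 to 361 CPM in knockout and 284 to 581 CPM in heterozygous libraries, and 3 of them were called lower. Much of the lowest sums was Notch1, which was not called and was at 82.8 to 110 CPM in knockout and 64.7 to 149 CPM in heterozygous libraries. The median log2 fold change of the 13 genes was -1.93. For 18 neuron genes, 9 of them called lower, the sum was 108 to 353 CPM in knockout and 342 to 2250 CPM in heterozygous libraries. Pericyte genes (10, of which 9 were tested and 2 called lower) summed to 23.3 to 178 CPM in knockout and 174 to 281 CPM in heterozygous libraries. Microglia genes (11, 1 called lower) summed to 136 to 887 CPM in knockout and 512 to 1504 CPM in heterozygous libraries. Erythroid genes (8, of which 5 were tested and 2 called lower) summed to 19.9 to 51.9 CPM in knockout and 236 to 610 CPM in heterozygous libraries. Fibroblast genes (7, 0 called) summed to 107 to 606 CPM in knockout and 222 to 417 CPM in heterozygous libraries. Of these fibroblast genes, Foxc1 was at 59.7 to 85.2 CPM in knockout and 54.1 to 89.5 CPM in heterozygous libraries. The erythroid genes Hba-a1 and Hbb-bt were at 0 in every library. Radial glia divide and use the same replication genes. Of these sums, that of the erythroid genes alone did not overlap between genotypes. Estimates for most neuron, radial glia, pericyte and microglia markers were below 0, while Notch1 and Foxc1 changed little. The part of other cells in the results was not tested. Fits with marker scores as covariates are given beside the called genes and, for the other members, among the alternatives. The neural score (neuron and radial glia markers) was 0.71 to 3.09 in knockout and 3.15 to 5.30 in heterozygous libraries. The other-cell score (neuron, radial glia, pericyte, microglia and erythroid markers) was 1.67 to 3.05 in knockout and 3.99 to 4.86 in heterozygous libraries. It shares the neuron and radial glia markers with the neural score, so the scores are not separate checks. Fibroblast markers are in neither score. Neither score overlapped between genotypes, so a call lost in these fits cannot tell marker content from genotype.

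Of the 33 genes, 1 fell and 0 rose in knockout cells (edgeR quasi-likelihood test, adjusted p under 0.05 over all genes). The gene that fell was Mcm7. Over all tested genes 9.55% were called, 4.02% as lower and 5.53% as higher in knockout, so the called share of the list, 3.03%, was below that of all genes. At an unadjusted p under 0.05, 4 of the 33 were lower and 0 higher, against 1709 lower (12.6%) and 1764 higher of all 13540 genes. The lower share of the list was thus close to that of all genes. DESeq2 called 3 as lower and 0 as higher, against 1119 lower and 1110 higher of all 13540 genes (16.5% in either direction). With limma voom 3 were called lower and 0 higher, against 670 lower and 789 higher of all 13540 genes. In bulk samples, fewer cells of a type and less RNA per cell cannot be told apart.

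Estimates leaned downward without passing the test. In 27 of the 33 genes the log2 fold change (knockout over heterozygous) was below 0, against 52.1% of all tested genes, with a median of -0.25 for the list and -0.03 for all genes. With library size alone as the scaling, these medians were -0.40 and -0.15. Values ran from -1.06 for Mcm7 to 0.23 for Gins3. The 95% interval lay within a 2-fold change in either direction for 20 of the 33 genes, against 45.9% of all genes, and it excluded a 2-fold rise for 31 (70.8% of all genes). The widest interval was that of Orc1, from -2.32 to 1.82. The count of genes with an estimate below 0 was 21 without knockout 1, 23 without knockout 1 and heterozygous 2, and 30 without knockout 2. The 33 genes were measured in the same libraries, so they are not 33 separate observations of genotype.

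**Figure D1:**
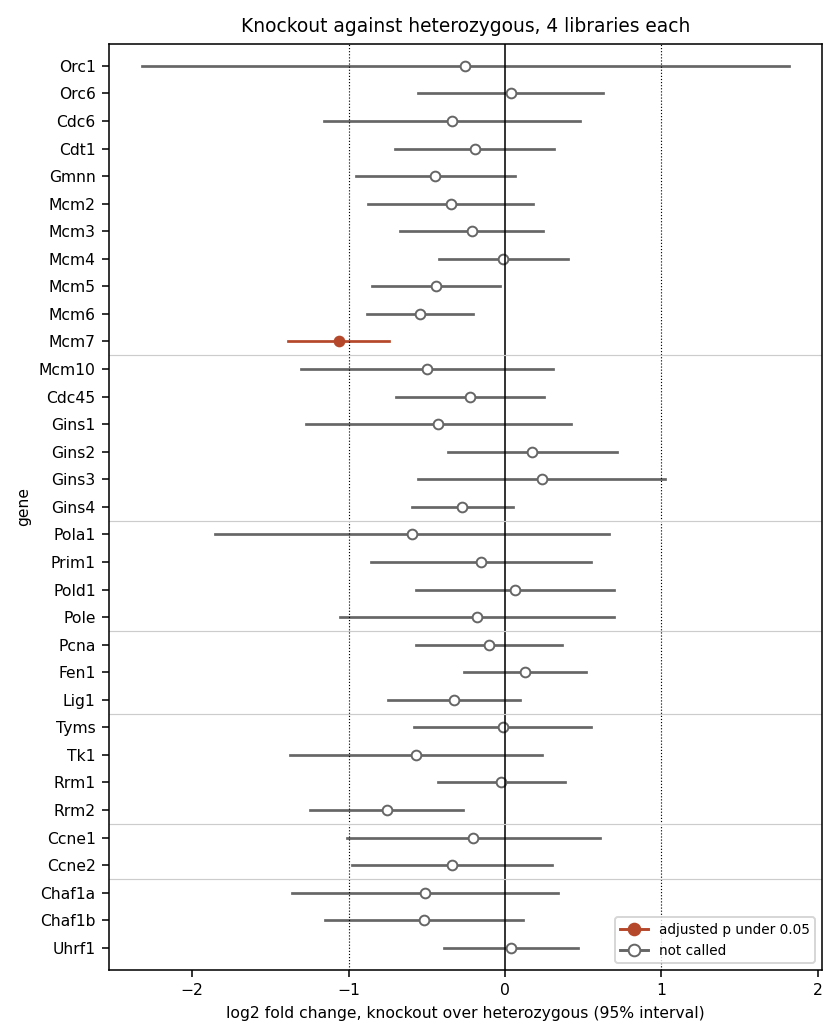
Log2 fold change of each of the 33 genes (x axis, knockout over heterozygous) with its 95% interval, genes down the page in order of role and 4 libraries per genotype. Dotted lines mark a 2-fold change; Mcm7, at -1.06, is the filled point, and the 32 open points were not called.

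Libraries within a genotype differed, most of all in knockout. The mean log2 CPM of the 33 genes was 4.80, 5.71, 4.86 and 5.22 in knockout libraries 1 to 4, against 5.57, 5.39, 5.61 and 5.35 in heterozygous libraries 1 to 4. Knockout 2 thus lay above every heterozygous library, and the other 3 knockout libraries lay below all 4. Knockout 1 had the lowest level of all 8 libraries for 20 genes, and knockout 2 had the highest for 14. The SD of log2 CPM was larger among knockout than among heterozygous libraries for 24 of the 33 genes (53.2% of all genes), with a median SD of 0.46 in knockout and 0.25 in heterozygous libraries. Over all genes the median SD was 0.38 in knockout and 0.37 in heterozygous libraries. Without knockout 2 the count was still 22 of 33 (40.3% of all genes). Knockout 2 also had the lowest radial glia sum, 125 CPM. Of that sum Notch1 supplied 82.8 CPM, and in knockout 4 it supplied 107 of 146 CPM.

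**Figure D2:**
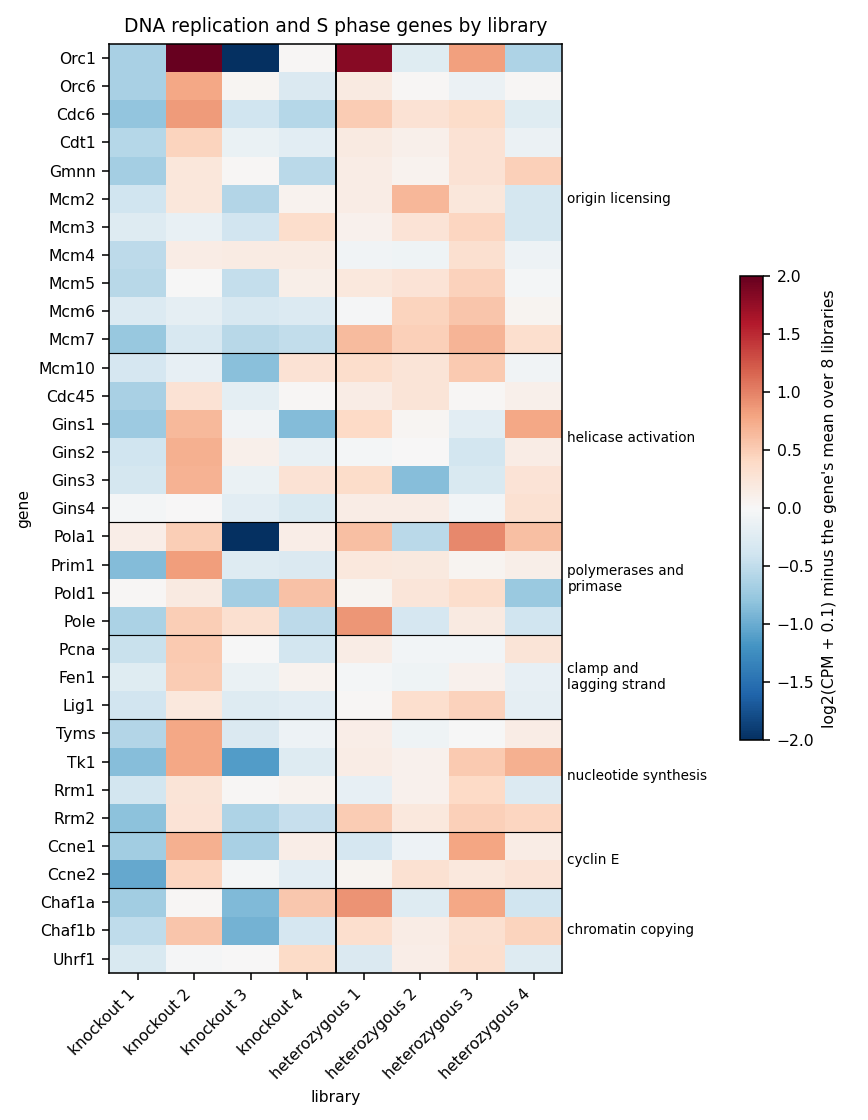
Each row is a gene and each column a library, knockout left of heterozygous; colour gives log2(CPM + 0.1) minus the gene's mean over the 8 libraries, cut at 2 in either direction. Knockout 1 is low for most genes, knockout 2 is high for many of them, and Mcm7 is lower in every knockout library than in every heterozygous one.

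Without knockout 2, 4 of the 33 genes were called, all lower in knockout: Mcm7, Rrm2, Tk1 and Chaf1b. Over all 13992 genes tested in that fit, 391 were called lower and 715 higher. The median of the list was then -0.48, while that of all genes was -0.05. Without knockout 1 the median was -0.11, and Mcm7 was the gene called (208 lower and 371 higher over all 13916 genes tested). Without the pair of knockout 1 and heterozygous 2, the libraries with 914 and 331 counts of the Y-linked gene Ddx3y and at most 1 count of Xist, the median was -0.10, and Mcm7 was again the gene called. Over all 13728 genes tested without that pair, 120 were called lower and 180 higher.

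Origin licensing was the role with the called gene, 1 of 11 (9.09%), close to the 9.55% called over all genes. Beside the counts by role and list given below, the shares over all genes in either direction were 9.55% by edgeR and 16.5% by DESeq2. At an unadjusted p under 0.05 in edgeR that share was 25.6%. Mcm7, a subunit of the helicase ring, was at 56.6, 76.8, 65.5 and 67.9 CPM in knockout libraries 1 to 4, against 149, 134, 154 and 121 CPM in heterozygous libraries 1 to 4. The highest knockout library was well below the lowest heterozygous one. Mcm7 fell 2.09-fold, a log2 fold change of -1.06 ± 0.15 (± SE, as for all fold changes; edgeR adjusted p = 0.00290), and was lower in 4 of 4 knockout libraries than in any heterozygous library. Leaving out any 1 of the 8 libraries kept the call, with estimates from -1.14 to -0.98. A neural score, the average level of neuron and radial glia markers, was used as a covariate. With it the estimate was -1.07 and the call was lost (edgeR adjusted p = 0.114). The other-cell score averages 5 cell types outside endothelium, neurons and radial glia among them. With that score the estimate was -1.19 and the call was lost too (edgeR adjusted p = 0.537).

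The other subunits of the ring were not called. Mcm6 was at 185, 197, 179 and 186 CPM in knockout libraries 1 to 4, against 221, 304, 329 and 234 CPM in heterozygous libraries 1 to 4. Its groups did not overlap, and its log2 fold change was -0.54 ± 0.15 (edgeR adjusted p = 0.0510; 0.00519 to 0.648 over 19 alternatives, of which DESeq2 gave the lowest and 7 called it). Among fits with 1 library left out, the one without heterozygous 1 called it (-0.63, edgeR adjusted p = 0.0382). Among the 33 genes the groups lay apart, with knockout lower, for Mcm6 and Mcm7 alone, 2 genes, against 7.9% of all genes; the groups lay apart with knockout higher for 0 of the 33, against 9.7% of all genes.

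Mcm5 was at 89.0, 130, 94.9 and 143 CPM in knockout libraries 1 to 4, against 153, 159, 181 and 128 CPM in heterozygous libraries 1 to 4, and the groups overlapped through heterozygous 4. Its estimate was -0.44 ± 0.19 (edgeR adjusted p = 0.163). Mcm2 and Mcm3 had estimates of -0.35 ± 0.24 and -0.21 ± 0.21. Mcm4 averaged 77.9 ± 16.2 CPM in knockout and 78.4 ± 11.9 CPM in heterozygous libraries (SD, n = 4 each), and its 95% interval on the log2 scale ran from -0.42 to 0.40. Subunits of 1 ring thus had estimates from -1.06 to -0.01. The log2 CPM of Mcm7 minus the mean of Mcm2 to Mcm6 was -0.88, -0.84, -0.75 and -1.11 in knockout libraries 1 to 4, against 0.04, -0.36, -0.23 and -0.03 in heterozygous libraries 1 to 4. This difference was chosen after the values were seen and was not tested.

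**Figure D3:**
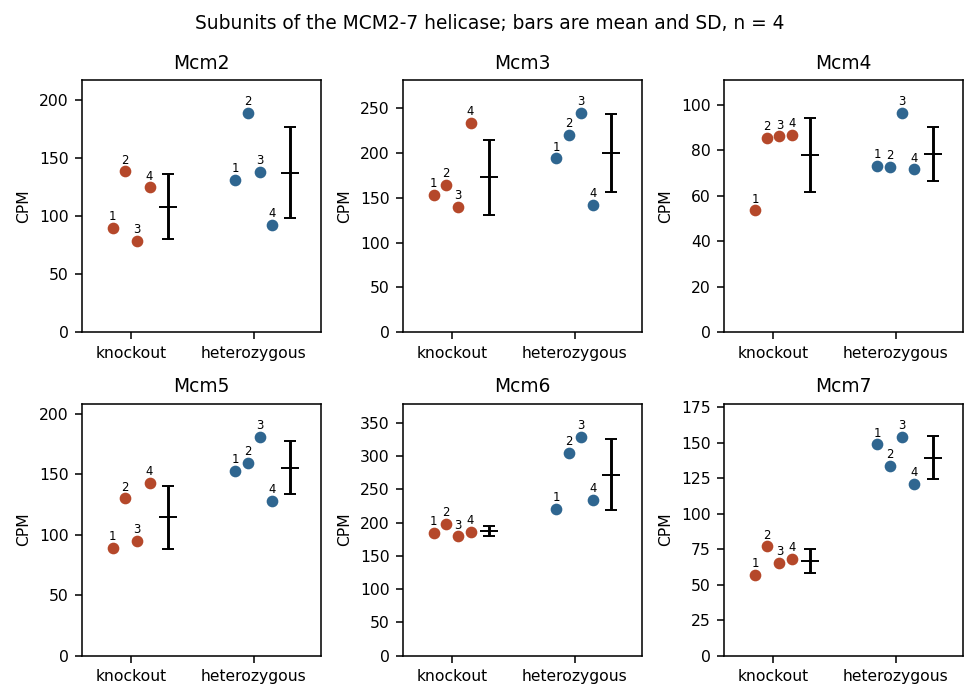
CPM of the 6 subunits of the helicase ring in each library (points, numbered by library; each y axis starts at 0) with mean and SD of 4 libraries, knockout left of heterozygous. Mcm7 lies between 56.6 and 76.8 CPM in knockout and between 121 and 154 CPM in heterozygous libraries, while the groups of Mcm2 to Mcm5 overlap.

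Per kilobase of the principal GENCODE transcript, the order of subunit levels differed between genotypes at Mcm7. In knockout libraries Mcm6 was highest at 64.2 ± 2.63 CPM per kilobase, followed by Mcm3 (56.9 ± 13.7), Mcm5 (33.8 ± 7.83), Mcm2 (32.0 ± 8.33), Mcm7 (22.5 ± 2.81) and Mcm4 (21.7 ± 4.53). In heterozygous libraries the order was Mcm6 (93.5 ± 18.2), Mcm3 (66.1 ± 14.4), Mcm7 (47.1 ± 5.11), Mcm5 (45.9 ± 6.47), Mcm2 (40.8 ± 11.7) and Mcm4 (21.8 ± 3.33; SD, n = 4). Neighbours in these orders differed by less than the larger of their SDs, except Mcm3 and Mcm5, and Mcm2 and Mcm7, in knockout and Mcm6 and Mcm3, Mcm3 and Mcm7, and Mcm2 and Mcm4 in heterozygous libraries. These levels assume that the authors counted reads over 1 transcript per gene.

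Mcm7 (ENSMUSG00000029730) lies on the minus strand at chr5:138164583-138172422 of GRCm38. It shares 7.25% of its exon bases with Ap4m1 and 1.45% with Cops6, both on the opposite strand, and the counts are not stated to use strand. Ap4m1, a subunit gene of an adaptor complex of vesicle transport, averaged 7.6 ± 2.91 CPM in knockout and 8.73 ± 0.58 CPM in heterozygous libraries. Cops6, a subunit gene of the COP9 signalosome, was at 381 ± 57.2 CPM in knockout and 400 ± 28.2 CPM in heterozygous libraries, and neither was called. The gene also holds the hairpins of Mir25, Mir93 and Mir106b; their rows had 0 counts in every library except 1 count of Mir25 in heterozygous 1, and poly(A) libraries do not measure mature miRNAs.

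E2F sites are what the promoters of this family are known for, and the windows that hold them in the ring subunits are printed here to set beside the unequal estimates. The words TTTCCCGC, TTTCGCGC, TTTGCCGC and TTTGGCGC were searched on both strands, from 250 bases before to 50 bases after each RefSeq start (GRCm38.p6); matches may overlap. At least 1 word was found in 12 of the 26 members with a promoter in the table (46.2%), against 2.6% of all 27025 genes. CCAAT, on either strand, was found in 17 of the 26 (65.4%) and in 41.1% of all genes. In the windows below each word is in capitals, and each run reads along the gene's own strand.
Mcm7, chr5:138172030-138172059: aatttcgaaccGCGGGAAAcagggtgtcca
Mcm7, chr5:138171849-138171878: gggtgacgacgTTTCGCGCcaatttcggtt
Mcm5, chr8:75109347-75109376: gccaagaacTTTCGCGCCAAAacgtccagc
Mcm3, chr1:20820266-20820295: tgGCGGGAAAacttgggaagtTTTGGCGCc
Mcm7 has 2 RefSeq starts. Its first window begins 176 bases before the upstream start and its second window 5 bases after that start. The promoter of the other start, chr5:138171217-138171516, held none of these words. For Mcm6 the 250 bases before the start, chr1:128359706-128359955 on the minus strand, hold 3 words, of which the first pair overlaps:
Mcm6: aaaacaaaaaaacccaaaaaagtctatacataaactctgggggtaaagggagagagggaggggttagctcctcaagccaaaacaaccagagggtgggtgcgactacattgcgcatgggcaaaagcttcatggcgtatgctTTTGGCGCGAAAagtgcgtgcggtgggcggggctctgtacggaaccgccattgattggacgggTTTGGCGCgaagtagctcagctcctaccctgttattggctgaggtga
The window of Mcm2 held none of these words, and Mcm4 had no promoter in the table. Over the 12 genes with a word the median log2 fold change was -0.29 (-1.06 to 0.23), over the 14 without one it was -0.21 (-0.76 to 0.13), and over the 7 genes with no promoter in the table it was -0.27 (-0.45 to 0.18). Mcm7, called, and Pold1, at 0.06, both held a word, and Rrm2 held none. A match is a description of the letters and not a measured binding site.

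The loading factors and their inhibitor were not called. Cdc6, which loads the helicase, was at 8.79, 27.6, 11.6 and 10.2 CPM in knockout libraries 1 to 4, against 21.7, 18.7, 19.9 and 13.0 CPM in heterozygous libraries 1 to 4. Knockout 2 was above every heterozygous library, and the other 3 knockout libraries were below all 4. Cdt1, its partner in loading, averaged 27.9 ± 8.52 CPM in knockout and 31.8 ± 3.78 CPM in heterozygous libraries, and Gmnn, which blocks Cdt1 after origins have fired, 27.6 ± 8.33 CPM in knockout and 37.5 ± 4.78 CPM in heterozygous libraries (log2 fold change -0.45 ± 0.23). The log2 ratio of Cdt1 to Gmnn within a library was 0.01 ± 0.20 in knockout and -0.24 ± 0.31 in heterozygous libraries (SD, n = 4 each; exact two-sided permutation test, p = 0.229, adjusted 0.343 over 3 ratios). Of the origin recognition subunits, Orc6 averaged 53.2 ± 23.9 CPM in knockout and 51.8 ± 4.39 CPM in heterozygous libraries. Orc1 was near the limit of counting, with 4 to 131 counts per knockout library and 22 to 117 per heterozygous library; it also shares 10.8% of its exon bases with an opposite-strand transcript and is uncertain.

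Helicase activation genes were not called, 0 of 6 by edgeR (0 at an unadjusted p under 0.05, 0 by DESeq2), with estimates from -0.50 to 0.23. Cdc45, which joins the ring to GINS, averaged 28.7 ± 7.64 CPM in knockout and 33.5 ± 2.26 CPM in heterozygous libraries. Among the 4 GINS genes the estimates were -0.43 for Gins1, 0.18 for Gins2, 0.23 for Gins3 and -0.27 for Gins4. Gins4 had the narrowest interval, from -0.59 to 0.05, and averaged 55.8 ± 5.81 CPM in knockout and 67.3 ± 6.76 CPM in heterozygous libraries. Mcm10, a firing factor, averaged 5.50 ± 1.77 CPM in knockout and 7.78 ± 1.34 CPM in heterozygous libraries. Gins2 shares 67.3% of its exon bases with Gse1 on the opposite strand, so its value is uncertain.

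Of the polymerase and primase genes 0 of 4 were called by edgeR (0 at an unadjusted p under 0.05, 0 by DESeq2). Pold1, the catalytic subunit of polymerase delta, averaged 84.1 ± 28.6 CPM in knockout and 80.6 ± 23.9 CPM in heterozygous libraries. Pole, that of polymerase epsilon, averaged 9.38 ± 3.64 CPM in knockout and 10.6 ± 4.78 CPM in heterozygous libraries. Pola1, that of polymerase alpha, averaged 5.45 ± 3.06 CPM in knockout and 8.20 ± 3.10 CPM in heterozygous libraries (log2 fold change -0.60, 95% interval from -1.85 to 0.66). Prim1, the catalytic primase subunit, was at 14.2, 46.3, 21.8 and 21.1 CPM in knockout libraries 1 to 4, against 30.1, 29.6, 26.9 and 28.2 CPM in heterozygous libraries 1 to 4. Heterozygous libraries were thus close together while knockout libraries lay on both sides of them.

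The clamp and lagging strand genes were not called either, 0 of 3 by edgeR (0 at an unadjusted p under 0.05, 0 by DESeq2). Pcna, the sliding clamp, was at 101, 199, 137 and 106 CPM in knockout libraries 1 to 4, against 152, 133, 132 and 165 CPM in heterozygous libraries 1 to 4, with a 95% interval from -0.57 to 0.37 on the log2 scale. Fen1, the flap endonuclease, averaged 97.5 ± 23.9 CPM in knockout and 89.2 ± 6.56 CPM in heterozygous libraries; it shares 78.8% of its exon bases with an antisense gene and is uncertain. Lig1, the ligase that joins lagging strand fragments, averaged 53.8 ± 10.2 CPM in knockout and 67.5 ± 13.4 CPM in heterozygous libraries. All 3 intervals lay within a 2-fold change.

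Among nucleotide synthesis genes 0 of 4 were called by edgeR, and 1, Rrm2, was called by DESeq2. Rrm2, the small subunit of ribonucleotide reductase whose level follows S phase, was at 62.2, 132, 71.5 and 79.7 CPM in knockout libraries 1 to 4, against 156, 127, 153 and 147 CPM in heterozygous libraries 1 to 4. Knockout 2 overlapped with heterozygous 2, and the other 3 knockout libraries were far below. The log2 fold change was -0.76 ± 0.22 (edgeR adjusted p = 0.0563; DESeq2 adjusted p = 0.00998; 0.00514 to 0.610 over 19 alternatives, of which 5 called it). Without knockout 2 it was -1.03 (edgeR adjusted p = 0.00514). Rrm1, the large subunit, averaged 152 ± 26.4 CPM in knockout and 154 ± 32.5 CPM in heterozygous libraries, with a 95% interval from -0.43 to 0.39.

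Within libraries, the log2 ratio of Rrm2 to Rrm1 was -0.90, -0.45, -1.09 and -0.99 in knockout libraries 1 to 4, against 0.21, -0.32, -0.37 and 0.23 in heterozygous libraries 1 to 4. Every knockout library was below every heterozygous one. The difference was -0.80 (exact two-sided permutation test, p = 0.0286, the smallest that 70 arrangements allow; adjusted 0.0857 over 3 ratios), so it did not pass after correction. Without knockout 3 or any 1 of the heterozygous libraries the exact p was 0.0571. As for all tests here, this pair was chosen with earlier results of these data known, so its p-value is not that of an independent test.

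Tyms, which makes thymidylate, averaged 82.5 ± 37.1 CPM in knockout and 83.3 ± 6.52 CPM in heterozygous libraries. Tk1, the thymidine kinase of the salvage route, was at 27.1, 83.4, 22.4 and 40.9 CPM in knockout libraries 1 to 4, against 54.1, 52.0, 70.3 and 80.2 CPM in heterozygous libraries 1 to 4. Knockout 2 was the highest of all 8 and the other 3 knockout libraries the lowest. Its estimate was -0.57 ± 0.37 (edgeR adjusted p = 0.363), and without knockout 2 it was -1.08 (edgeR adjusted p = 0.0311).

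**Figure D4:**
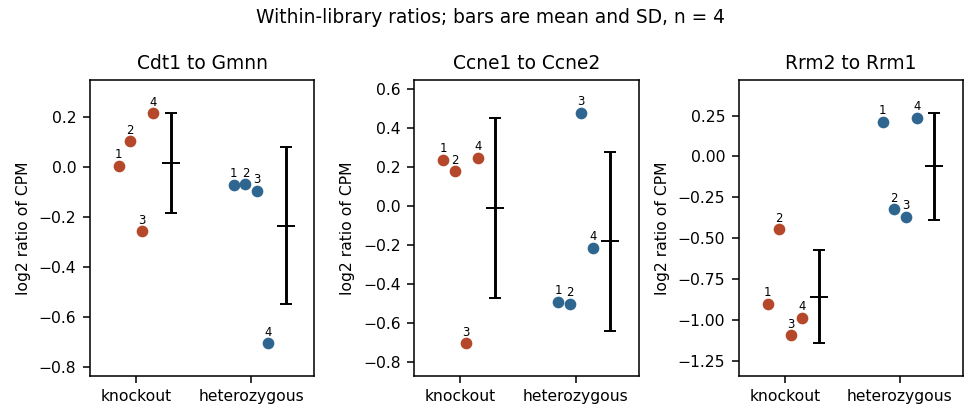
Within-library log2 ratios of CPM for Cdt1 to Gmnn, Ccne1 to Ccne2 and Rrm2 to Rrm1 (points, numbered by library) with mean and SD of 4 libraries, knockout left of heterozygous. For Rrm2 to Rrm1 the knockout libraries lie between -1.09 and -0.45 and the heterozygous libraries between -0.37 and 0.23; the other 2 ratios overlap.

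The cyclins E, which activate Cdk2 at the G1 to S border, were not called (0 of 2 by edgeR, 0 at an unadjusted p under 0.05, 0 by DESeq2). Ccne1 averaged 17.4 ± 8.38 CPM in knockout and 19.9 ± 7.19 CPM in heterozygous libraries, and Ccne2 17.1 ± 6.61 CPM in knockout and 21.6 ± 1.61 CPM in heterozygous libraries. Their log2 ratio was -0.01 ± 0.46 in knockout and -0.18 ± 0.46 in heterozygous libraries (SD, n = 4 each; exact two-sided permutation test, p = 0.600, adjusted 0.600). Ccne2 shares 17.4% of its exon bases with Ints8 on the opposite strand, a gene that was itself called lower in knockout (log2 fold change -0.83 ± 0.22, edgeR adjusted p = 0.0408; called in 2 of the 8 fits with 1 library left out and with neither score as a covariate).

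Chromatin copying genes were not called, 0 of 3 by edgeR (0 at an unadjusted p under 0.05, 0 by DESeq2). Chaf1b, a subunit of the histone chaperone CAF-1, was at 21.0, 43.6, 15.4 and 23.4 CPM in knockout libraries 1 to 4, against 37.3, 32.9, 36.9 and 40.4 CPM in heterozygous libraries 1 to 4. Knockout 2 lay above all heterozygous libraries and the other 3 knockout libraries below them, and without knockout 2 the estimate was -0.88 (edgeR adjusted p = 0.0317), against -0.52 ± 0.29 with all libraries. Chaf1a, the large CAF-1 subunit, averaged 22.8 ± 10.6 CPM in knockout and 32.6 ± 14.6 CPM in heterozygous libraries and shares 52.5% of its exon bases with Ubxn6. Uhrf1, which guides maintenance methylation to new DNA, averaged 92.4 ± 18.6 CPM in knockout and 90.1 ± 19.1 CPM in heterozygous libraries, with a 95% interval from -0.39 to 0.46.

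The wider replication machinery held few called genes. Of 68 further genes for licensing, polymerases, nucleotides, fork protection and E2F control, 1 rose and 2 fell (4.41%, against 9.55% of all genes; median log2 fold change -0.13). DESeq2 called 2 higher and 3 lower, against 1110 and 1119 of all 13540 genes. Beyond the 3 edgeR calls these were Cdk2 (-0.64 ± 0.18, edgeR adjusted p = 0.0509, DESeq2 adjusted p = 0.00976) and E2f4 (0.48 ± 0.16, edgeR adjusted p = 0.0835, DESeq2 adjusted p = 0.0391). Dck, the kinase that salvages deoxycytidine, was at 27.3, 44.2, 41.5 and 34.1 CPM in knockout libraries 1 to 4, against 78.0, 65.2, 91.5 and 72.9 CPM in heterozygous libraries 1 to 4. The groups lay far apart, and Dck fell 2.09-fold (edgeR adjusted p = 0.00756). It was called in 8 of the 8 fits with 1 library left out, and the call was lost with the neural score (-1.01, edgeR adjusted p = 0.213) and with the other-cell score (-0.97, edgeR adjusted p = 0.704) as a covariate. Cad, the enzyme that begins pyrimidine synthesis, averaged 53.4 ± 6.28 CPM in knockout and 33.2 ± 3.64 CPM in heterozygous libraries and rose 1.61-fold (edgeR adjusted p = 0.0256); the call was lost in 10 of 19 alternatives, among them those without knockout 1 or 4 or heterozygous 2, 3 or 4, library size alone as the scaling, and both scores (0.81 with the neural score, edgeR adjusted p = 0.250; 0.66 with the other-cell score, edgeR adjusted p = 0.789). Tfdp1, the dimer partner of E2F factors, averaged 68.5 ± 7.81 CPM in knockout and 99.6 ± 10.3 CPM in heterozygous libraries and fell by 0.54 on the log2 scale (edgeR adjusted p = 0.0406); of the fits with 1 library left out, the one without heterozygous 4 alone kept the call, and both scores lost it (-0.58 with the neural score, edgeR adjusted p = 0.356; -0.77 with the other-cell score, edgeR adjusted p = 0.671).

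The remaining lists of this machinery had no called gene by edgeR or DESeq2. Of 14 further licensing and firing factors 0 were called (0 at an unadjusted p under 0.05); the most abundant, Orc3 and Mcmbp, had estimates of 0.36 ± 0.21 and -0.23 ± 0.16. Of 15 polymerase, primase, RPA and RFC subunits 0 were called (2 at an unadjusted p under 0.05, both higher), with 0.26 ± 0.18 for Pold2 and -0.13 ± 0.13 for Rfc2. Of 12 genes for fork protection and chromatin copying 0 were called (0 at an unadjusted p under 0.05), with -0.06 ± 0.21 for Slbp, which binds histone mRNA, and -0.06 ± 0.25 for Tipin of the fork protection complex.

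Mitosis genes, from the later part of the cycle, had 0 of 20 called by edgeR (0 at an unadjusted p under 0.05, 0 by DESeq2) and a median log2 fold change of -0.04. Their mean log2 CPM was 5.11, 6.10, 5.37 and 6.07 in knockout libraries 1 to 4, against 5.81, 6.02, 5.81 and 5.63 in heterozygous libraries 1 to 4. The kinase Cdk1 averaged 161 ± 56.0 CPM in knockout and 152 ± 22.7 CPM in heterozygous libraries, and Ccnb1, its cyclin, 143 ± 46.0 CPM in knockout and 127 ± 15.7 CPM in heterozygous libraries. Among 9 genes of G1 control, Cdkn1a, whose product p21 inhibits cyclin E kinases and binds the Pcna clamp, averaged 1385 ± 324 CPM in knockout and 277 ± 97.0 CPM in heterozygous libraries and rose 4.99-fold (edgeR adjusted p = 0.00127). Cdkn1c, the inhibitor p57, averaged 140 ± 45.7 CPM in knockout and 456 ± 63.0 CPM in heterozygous libraries and fell 3.27-fold (edgeR adjusted p = 0.00232). Both were called in 8 of the 8 fits with 1 library left out. With the neural score the estimates were 2.21 for Cdkn1a (edgeR adjusted p = 0.0470) and -1.54 for Cdkn1c (edgeR adjusted p = 0.104). With the other-cell score they were 2.40 for Cdkn1a (edgeR adjusted p = 0.442) and -1.05 for Cdkn1c (edgeR adjusted p = 0.679). Cdkn1c thus lost its call with both scores and Cdkn1a with the other-cell score. Of the 9 genes edgeR called 1 higher and 1 lower (22.2%), and DESeq2 called 1 higher and 2 lower. The further DESeq2 call was Ccnd2, a D-type cyclin of G1 (log2 fold change -0.98 ± 0.32, edgeR adjusted p = 0.0787, DESeq2 adjusted p = 0.00959). Ccnd2 was at 257 ± 45.6 CPM in knockout and 508 ± 284 CPM in heterozygous libraries, and the groups overlapped.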

How the data were processed

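The authors deposited raw counts per gene symbol for 8 libraries. TopHat2 0.7, Cufflinks 2.2.1 and build mm10 are listed in the submitters' processing notes; the counting program and strand setting: not given in the sources used here. Per the labels, cDNA was made with SMART-Seq v4 and libraries with Nextera XT. Whether libraries of a group are separate embryos is not stated, so the spread behind each p-value may be partly technical.

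Counts were analysed in R 4.3.3 with edgeR 4.0.16: filterByExpr (minimum count 10, minimum total 15; 13540 genes, 99.9% of counts), TMM scaling, robust quasi-likelihood F-test without covariate, and Benjamini-Hochberg adjustment over all tested genes. Errors of fold changes are SE and intervals 95%; log2 CPM used a prior count of 2. DESeq2 1.42.0 and limma 3.58.1 were alternatives. The depth of 9.11 to 35.9 M counts limits genes such as Orc1. The members, lists and tests were chosen with earlier results of these data known. All 33 members are named. From each other pathway list up to 4 called genes are named, or the 2 most abundant. Outside this rule Cdk2, E2f4 and Ccnd2 are named, as DESeq2 called them and edgeR did not. Gene positions come from GENCODE M21 (GRCm38, the build called mm10), and 26 of the 33 members matched a RefSeq promoter. Of the 33, 11 share exon bases with a gene on the opposite strand.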

Additional observations from a re-analysis of the deposited data

Results flagged for a closer look

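In 3 of 66 groups of 4 libraries (33 genes in each genotype), 1 library stood far from the other 3; chance alone gives about 1 in 20 such groups. Cdc6 was at 27.6 CPM in knockout 2, against 8.79 to 11.6 CPM in the other knockout libraries. Mcm4 was at 53.5 CPM in knockout 1, against 85.3 to 86.6 CPM in the other knockout libraries. Mcm4 was also at 96.3 CPM in heterozygous 3, against 71.6 to 73.2 CPM in the other heterozygous libraries.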

How the results depend on the processing

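The count of called genes was 1293, and 2229 with DESeq2, 87 with the neural score, 0 with the other-cell score (1048 in edgeR at an unadjusted p under 0.05; DESeq2 had no covariate), 300 without knockout 1 and heterozygous 2, 842 without knockout 2 and heterozygous 1, and 579 to 1347 with 1 library left out (579 without knockout 1, 625 without knockout 4, 787 without heterozygous 1, 790 without heterozygous 3). With library size alone 539 were higher and 725 lower in knockout, against 749 higher and 544 lower with TMM. Members called lower numbered 1 (544 over all genes tested), but 2 with RLE factors (576) or a filter of CPM over 1 in 4 libraries (565). They numbered 3 with library size alone (725), DESeq2 (1119) or limma voom (670), and 4 without knockout 2 and heterozygous 1 (307). With 1 library left out they numbered 1 to 4 (4 without knockout 2, against 391 over all genes, and 2 without heterozygous 1, against 326). With either score 0 were called. In edgeR at an unadjusted p under 0.05, 7 members were lower with each score. Over all 13540 genes, 1685 passed that level in either direction with the neural score and 1048 with the other-cell score. No member was called higher under any alternative. Mcm7 was called in 17 of 19 alternatives, all but the 2 scores. The median of the members was -0.91 with the other-cell score. The cause of these changes was not tested.

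The labels do not say whether replicate numbers pair the samples. Same-numbered libraries deviated from their group means with correlations of 0.06, 0.21, -0.05 and 0.02. Differently numbered libraries were not compared, so these values do not settle whether the replicate number pairs samples. In the fit that takes this number as a block (the replicate block), 868 genes and Mcm7 alone among the members were called, the calls of Cad, Tfdp1 and Ints8 were lost (0.69, -0.54 and -0.86; edgeR adjusted p = 0.0794, 0.130 and 0.0598), and the Rrm2 to Rrm1 difference was -0.80 with the smallest p that exact sign flips of 4 pairs allow, 0.125. That difference was -0.87 without knockout 1 and heterozygous 2 (exact permutation p = 0.1, the smallest possible there) and -0.93 to -0.70 with 1 library left out; the Ccne1 to Ccne2 difference was -0.018 without knockout 1 and heterozygous 2.

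Members that were never called and whose estimate changed sign did so at these log2 values. Orc6 was -0.088 with library size alone, -0.11 with limma voom and -0.058 with the replicate block. Pold1 and Uhrf1 were -0.067 and -0.081 with library size alone. Mcm4, Tyms and Rrm1 were 0.016, 0.017 and 0.0036 with no filter. With the neural score, Orc6, Gins2, Pold1, Pole, Fen1 and Uhrf1 were -0.32, -0.23, -0.28, 0.40, -0.16 and -0.13; with the other-cell score they were -0.41, -0.31, -1.18, 0.83, -0.44 and -0.53, and Gins3 was -0.18. Without knockout 2 and heterozygous 1, Orc6, Gins2, Fen1 and Uhrf1 were -0.25, -0.080, -0.048 and -0.030. Without knockout 1 and heterozygous 2, Mcm4, Prim1, Tyms and Rrm1 were 0.11, 0.080, 0.12 and 0.11. With 1 library left out, sign changes fell within -1.57 to 0.40 for Orc1, -0.30 to 0.23 for Orc6, -0.066 to 0.15 for Mcm4, -0.078 to 0.34 for Gins2, -0.59 to 0.070 for Prim1, -0.15 to 0.26 for Pold1, -0.39 to 0.16 for Pole, -0.34 to 0.035 for Pcna, -0.046 to 0.24 for Fen1, -0.36 to 0.17 for Tyms, -0.11 to 0.12 for Rrm1, -0.54 to 0.073 for Ccne1 and -0.10 to 0.17 for Uhrf1.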

Other observations

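Some genes outside the naming rule, chosen after their values were seen, had estimates on opposite sides of 0 within 1 family, and none of them was called. Pola2, the second subunit of polymerase alpha, was at 77.7 ± 15 CPM in knockout and 52.1 ± 11 CPM in heterozygous libraries (log2 fold change 0.57 ± 0.19, edgeR adjusted p = 0.0903), while Pola1 had an estimate of -0.60 ± 0.57. Among activator E2F genes, E2f3 had an estimate of 0.73, E2f1 of -0.24 and E2f2 of -0.86. The difference between members of a family was not tested.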
